A study of Drosophila melanogaster with 4 samples.

Results

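The small nucleolar RNA (snoRNA) genes of Drosophila melanogaster were taken as all genes of the snoRNA biotype in the Ensembl annotation, which gave 269 of 18358 genes once transposable elements were left out. For each gene, the transcription start sites (TSSs) on its strand were collected from inside the gene and from within 200 bp of its annotated start. Of the 269 genes, 243 lay wholly in an intron of another gene on the same strand (intronic genes, with that gene as host), 22 overlapped no other gene on their strand (independent genes), and 4 overlapped one without lying in its intron. By their symbols, 117 genes belonged to the C/D class, 120 belonged to the H/ACA class and 32 could not be classed. The RNAs were 46 to 316 nt long with a median of 134 nt, and 96 of the genes lay on chromosome 2R, 52 on 3L, 48 on 3R, 41 on 2L, 31 on X and 1 on 4.

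TSSs were mapped in whole embryos of the Canton S wild-type strain, aged 0 to 12 h, by capped small RNA sequencing (csRNA-seq). This assay purifies RNAs of 20 to 60 nt, enriches those with a capped 5′ end and reads the first base of each. There were 3 csRNA-seq libraries and 1 input library, which skips the cap enrichment and was not analysed here, and all came from 1 strain at 1 age, with no treated or mutant group. Each TSS had 1 coverage value (reads per 10000000 reads of a library), so no spread between replicates could be computed, and the intervals given below cover counting error only.

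snoRNAs guide the chemical modification of other RNAs. C/D snoRNAs pair with ribosomal RNA and direct 2′-O-methylation by fibrillarin, H/ACA snoRNAs direct pseudouridylation by dyskerin, and the related scaRNAs guide the same reactions on spliceosomal small nuclear RNAs in Cajal bodies. Most animal snoRNAs are cut out of the introns of a host transcript and trimmed to a protected core, so that they share the host's promoter and carry no cap of their own, while a few, U3 among them, are made from their own promoters.

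The 232302 TSSs of the full list came from libraries of 7299457, 5931389 and 4070746 reads. Of all TSSs, 52.8% rested on 3 reads or fewer, against 48.5% of those in the snoRNA windows, so single weak TSSs carry little weight. The stage label could be checked with marker genes. All 10 genes chosen for early embryonic patterning, such as eve, Kr and twi, had TSSs at their starts (summed coverage 20.8 to 8526), while 7 of 8 genes of adult tissues had none, and Yp3, a yolk protein gene, had a coverage of 13.5.

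Most snoRNA genes had TSSs nearby, but few had them at the annotated start of the RNA. A TSS lay in the window of 245 of the 269 genes (91.1%, 95% Wilson interval 87.1 to 93.9), whereas 64.9% of all other genes had one when counted the same way. The other genes were longer (median 1670 bp against 134 bp for snoRNA genes), and with only the 200 bp on each side of the start counted, 57.3% of them had a TSS, and still 91.1% of the snoRNA genes. Within 5 bp of the annotated start, by contrast, a TSS was present for 40 of the 269 snoRNA genes (14.9%, 11.1 to 19.6), below the 37.3% of all other genes. Spliceosomal snRNA genes, most of which are transcribed from their own capped starts, had such a TSS in 27 of 32 cases (84.4%, 68.2 to 93.1). In tRNA genes the share was 24.5%, and in microRNA precursor genes, which are also cut from longer transcripts, it was 1.91%. The C/D genes had a TSS at the start in 22 of 117 cases and the H/ACA genes in 15 of 120, shares of 18.8% (12.8 to 26.8) and 12.5% (7.72 to 19.6) whose intervals overlap.

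In the full list, intronic and independent genes differed. A TSS lay in the window of 229 of 243 intronic genes (94.2%, 90.6 to 96.5) and of 13 of 22 independent genes (59.1%, 38.7 to 76.7), 2 intervals that do not overlap. With at least 4 reads behind a TSS they did overlap, at 74.5% (68.7 to 79.6) and 59.1% (38.7 to 76.7). The authors' deduplicated list holds 1 TSS per group of overlapping windows. There the intronic share was the lower one, at 37.9% (32.0 to 44.1) against 50% (30.7 to 69.3), with overlapping intervals. Together the windows held 2213 TSSs, 0.953% of the list, with a summed coverage of 594724, which was 5.61% of all coverage. The independent genes held 321 TSSs and a coverage of 469601, and the intronic genes held 1867 TSSs and a coverage of 122519. That order was set by 1 gene, since snoRNA:185 alone held 98.6% of the coverage of the independent genes. In the intronic windows 1312 of the TSSs (70.3%) lay inside the snoRNA, 71 lay within 5 bp of its start and only 1 within 5 bp of its end, while 258 lay within 50 bp of a start of the host. By coverage the order rested on single windows. TSSs at host starts summed to 69839 (57.0% of the coverage of the intronic windows), those inside the snoRNAs to 41939 (34.2%) and those at snoRNA starts to 8599 (7.02%). Without the window of snoRNA:Psi18S-920, which holds the start of RpL10Ab, host starts made up 38.7% and the insides of the snoRNAs 48.8%, so that the order turned round. Without snoRNA:Me18S-C1968 the shares were 77.0% at host starts, 20.0% inside and 0.684% at snoRNA starts, and without both windows they were 61.5%, 33.5% and 1.15%. Exons of the host (154 TSSs, 0.753% of the coverage) and the rest of the intron (70 TSSs, 0.990%) contributed little.

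**Figure D1:**
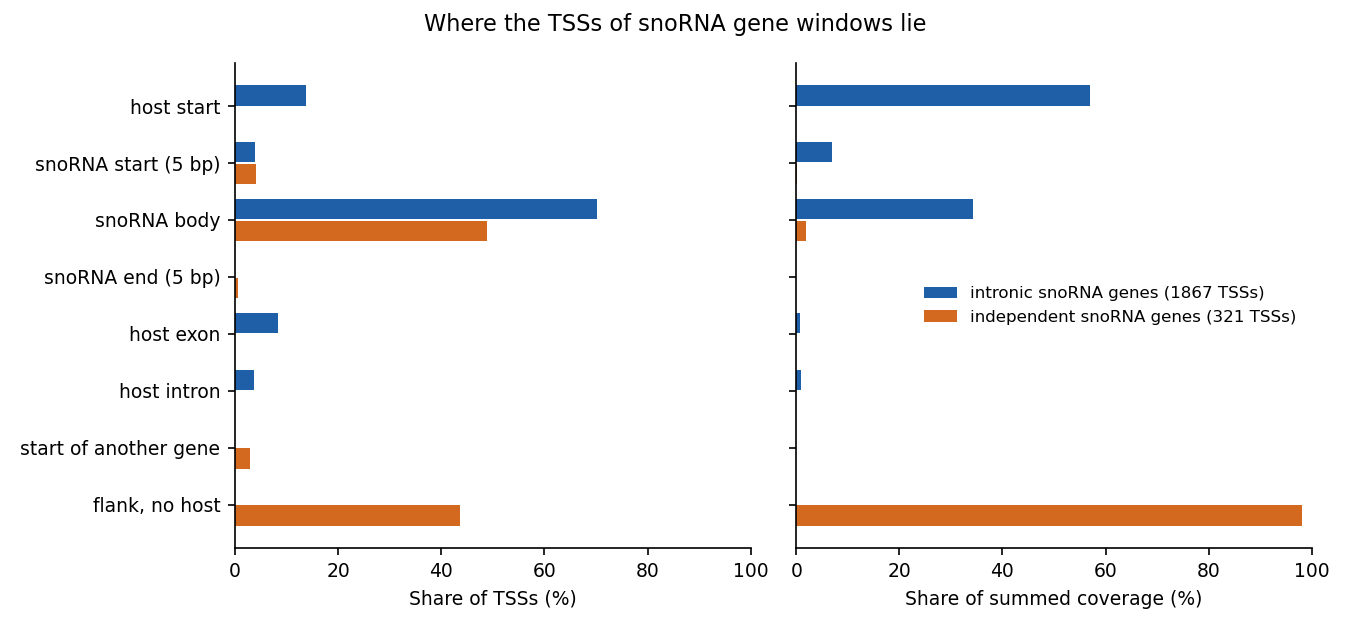
Share of TSSs (left, %) and of summed coverage (right, %) by place, for the windows of intronic (blue) and independent (orange) snoRNA genes. Most intronic TSSs (70.3%) lay inside the snoRNA while 57.0% of the intronic coverage lay at host starts (38.7% without the window of snoRNA:Psi18S-920), and 98.0% of the coverage of the independent genes lay in their flanks.

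The 200 bp limit was not a natural border. The 10 bp just inside it (191 to 200 bp before a snoRNA start) held 65 TSSs with a coverage of 678, and the 10 bp just outside it (201 to 210 bp before) held 86 TSSs with a coverage of 11620.

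Among the independent genes, snoRNA:185 (chromosome 2R, 19727098 to 19727152, minus strand, 55 nt, not classed by its symbol) had by far the highest coverage. Its window held 93 TSSs with a coverage of 462950, which was 77.8% of all the snoRNA windows and 4.37% of the coverage of the whole list. The strongest TSS lay 93 bp before the annotated start, with a coverage of 338865 from 247353 reads, and 98.5% of the coverage of the window lay within 10 bp of it, a range set after the values were seen. A second, much weaker group lay inside the RNA, 23 to 29 nt after its start, with the highest value (1974, from 1441 reads) 28 nt after it. At the annotated start itself (within 5 bp) the coverage was only 56.9. The nearest start of another gene on the strand was that of tRNA:Glu-TTC-1-5, 286 bp from the strongest TSS.

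A separate upstream cluster was also seen at other independent genes. snoRNA:Psi18S-301 (3R, 20574906 to 20575043, plus strand), an H/ACA gene, had 31 TSSs with a coverage of 2473, and the strongest (1599, from 651 reads) lay 101 bp before the start, with no TSS within 5 bp of the start. The nearest start of another gene on its strand, that of CG5412, was 2248 bp away. snoRNA:Psi28S-3342 had its strongest TSS 138 bp before the start (coverage 77.6), and snoRNA:Psi18S-176 had it 114 bp before the start (coverage 51.6). Both are H/ACA genes, and in neither did a TSS lie within 5 bp of the start. In the unclassed gene FBgn0263459 (2R, 13557905 to 13558055, minus strand, 45 TSSs, coverage 816) the values were spread over several groups, with the highest (123) at 54 bp before the start. Its neighbour FBgn0263472 held 21 TSSs in its window (coverage 132), and snoRNA:Psi28S-1153, the next gene of this row of 3 on 2R, had 12 (coverage 78.9), none of which was its own, because they lay in the neighbour. For snoRNA:Psi28S-2622 (18 TSSs, coverage 265) the highest value, 142 at 167 bp before the snoRNA, was at the annotated start of another gene.

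U3, which is needed for the first cuts of the ribosomal RNA precursor, showed the other pattern. snoRNA:U3:9B (X, 10348125 to 10348337, plus strand) had 27 TSSs with a coverage of 582, and its strongest TSS (155, from 113 reads) lay on the first annotated base. The copies snoRNA:U3:54Aa and snoRNA:U3:54Ab likewise had their strongest TSS on the first base, with coverages of 31.5 (23 reads) and 36.8 (15 reads), and held only 1 and 2 TSSs in all. These 3 genes are near-identical copies for which reads may be shared, and how reads that match several places were counted is not given in the sources used here. snoRNA:Me18S-A1806 (3L, 7639717 to 7639794, plus strand), the C/D gene among the strongest, combined both kinds. It had a coverage of 84.4 within 5 bp of its start, but its total was 1810 over 20 TSSs, and the highest value (379, from 277 reads) lay 42 nt inside the RNA. snoRNA:Or-aca4 had 24 weak TSSs, none above 18.5. Of the 13 independent genes with a TSS, the strongest lay before the start in 8, within 5 bp of it in 3 (the U3 genes) and inside the RNA in 2. For 3 of the 8, snoRNA:Psi28S-2622, FBgn0263472 and snoRNA:Psi28S-1153, the strongest TSS belonged to another annotated gene.

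**Figure D2:**
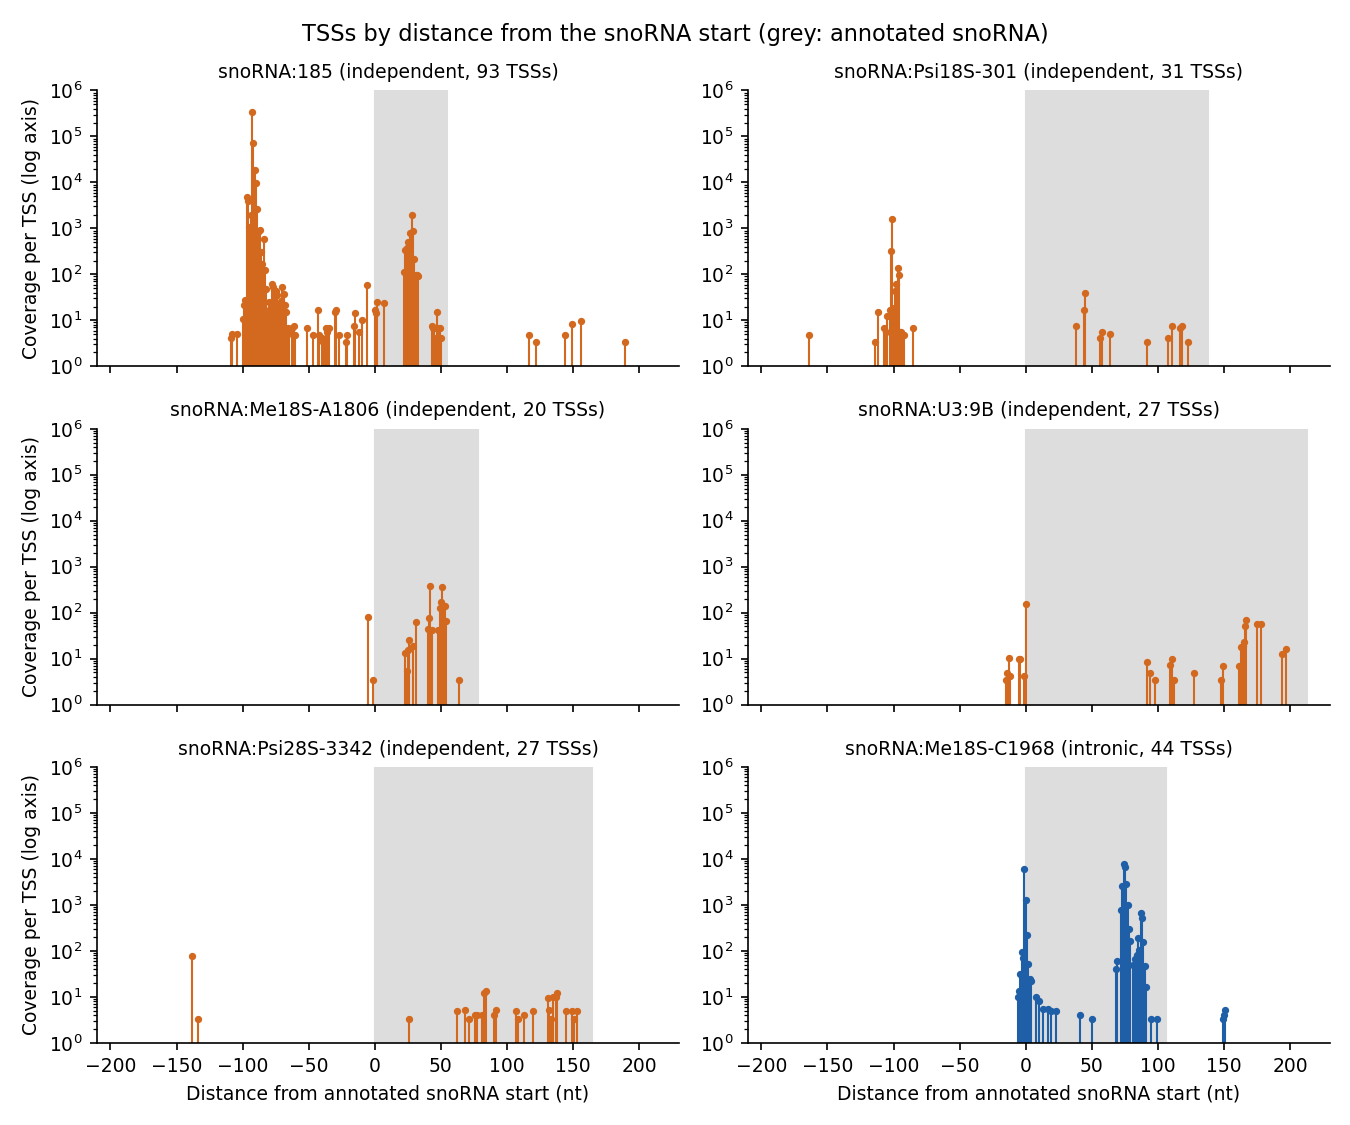
Coverage per TSS (log axis) against distance from the annotated snoRNA start in nt, for 5 independent genes (orange) and the intronic gene snoRNA:Me18S-C1968 (blue), with the annotated RNA in grey. The highest values of snoRNA:185 and snoRNA:Psi18S-301 stood 93 and 101 bp before the start, that of snoRNA:U3:9B stood on the first base, and snoRNA:Me18S-C1968 had one group at its start and a stronger one inside.

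The other 9 independent genes had no TSS in their windows: snoRNA:Or-ACA6, snoRNA:Or-ACA7, snoRNA:Or-ACA8, snoRNA:Or-CD13, snoRNA:Or-CD14, snoRNA:Me28S-C2789, snoRNA:Me18S-G1506, scaRNA:MeU1b-A234 and scaRNA:MeU1:95C-A24. Of these 9, 8 lay opposite a gene on the other strand, as did 2 of the 13 genes with a TSS. The 4 overlapping genes had no TSS of their own, that is, at their start, in their body or at their end. snoRNA:CG43051-a had a coverage of 2570 in its window, all of it at the annotated start of another gene, snoRNA:Or-CD15 had 30.8, snoRNA:83E4-5 had a single TSS of 2 reads, and snoRNA:660 had none.

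In the intronic genes the TSSs inside the RNAs followed the annotated snoRNA closely. Inside the snoRNAs there were 48.5 TSSs per kb on the sense strand, against 0.346 per kb in the rest of the same introns (beyond 200 bp of any annotated start), a ratio of 140 (105 to 188). Counted gene by gene, so that bases shared by overlapping snoRNA genes enter more than once, sense TSSs numbered 1402 and antisense TSSs 10. This made 99.3% sense (98.7 to 99.6). Over the whole windows 1867 of 1889 TSSs were sense (98.8%, 98.2 to 99.2), although 2 of these windows held a gene start of the other strand. Whether the RNAs behind these TSSs were capped was not tested.

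The position inside the RNA was not even. Counted from the last annotated base, 581 of 723 sense TSSs in the C/D genes (80.4%, 77.3 to 83.1) lay 20 to 60 nt from the 3′ end, a stretch that made up 47.7% of their bases. In the H/ACA genes 334 of 551 did (60.6%, 56.5 to 64.6), in 28.7% of the bases. This range is the RNA length purified for the libraries and was applied to the snoRNAs after their values had been seen. In C/D genes the density was highest 31 to 40 nt from the 3′ end (209 TSSs per kb), and in H/ACA genes 21 to 30 nt from it (142 TSSs per kb). In the last 10 nt it was 1.89 per kb for C/D genes, and no TSS lay there in H/ACA genes. A second, lower rise farther from the end was seen in H/ACA genes, and on few bases in C/D genes. In H/ACA genes, whose median length was 140 nt, it was 28.8 to 32.8 TSSs per kb at 101 to 130 nt, and 42.3 per kb at 141 to 150 nt on only 284 bases. In C/D genes, with a median length of 80 nt, the density was 31.3 per kb at 71 to 80 nt. It was 64.2 per kb at 91 to 100 nt, on 187 bases. At 101 to 110 nt it was 85.3 per kb, on only 129 bases and 11 TSSs. Among these 11 were TSSs on the first bases of a single gene, snoRNA:Me18S-C1968, 102 to 106 nt from its end. The strongest own TSS of a gene lay 20 to 60 nt from the 3′ end in 79 of 94 C/D genes (84.0%, 75.3 to 90.1), in 49 of 93 H/ACA genes (52.7%, 42.6 to 62.5) and in 11 of 21 genes not classed. Where that TSS had 10 reads or more, it lay there in 38 of 41 C/D genes, 16 of 20 H/ACA genes and 4 of 6 genes not classed, and it lay within 5 bp of the start in 1 C/D gene and in none of the others.

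**Figure D3:**
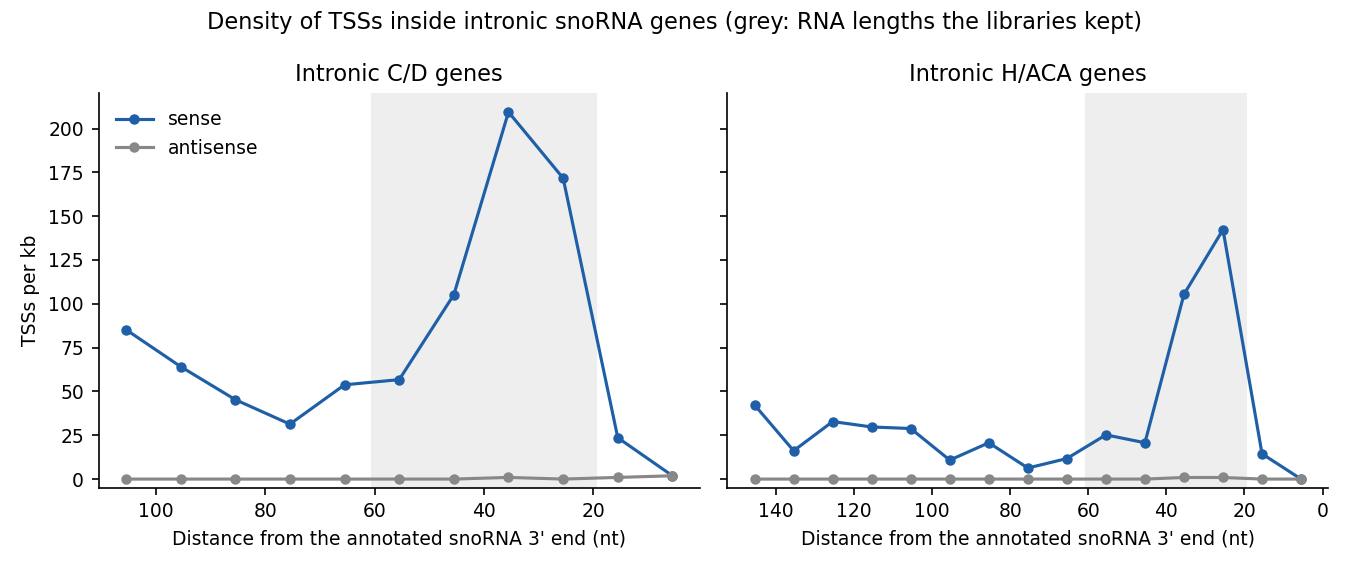
TSSs per kb in steps of 10 nt from the annotated 3′ end (right edge) of intronic C/D genes (left panel) and H/ACA genes (right panel), on the sense strand (blue) and the antisense strand (grey), for steps with at least 100 bases over all genes. The shaded range is the RNA length kept in the libraries (20 to 60 nt), and the sense density peaked inside it, at 209 per kb in C/D genes and 142 per kb in H/ACA genes.

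Of the 243 intronic genes, 208 (85.6%, 80.6 to 89.5) had a TSS of their own, and the summed coverage of a gene's own TSSs had a median of 22.1 with quartiles of 6.74 and 84.0. A TSS within 5 bp of the start was seen in 34 of them, with a median coverage there of 7.43, and the other 174 had TSSs inside the RNA or at its end without one at the start. C/D genes had a higher median own coverage (33.7, with a TSS in 94 of 106 genes) than H/ACA genes (12.8, in 93 of 111), and the genes not classed had 17.4 (21 of 26). The shares of genes with an own TSS had overlapping intervals, 81.2 to 93.4 for C/D genes and 75.8 to 89.5 for H/ACA genes. C/D genes also sat at a fixed place in the intron, a median of 71.5 bp (quartiles 68.0 and 77.0) before the 3′ splice site, with 91 of 106 at 60 to 90 bp, whereas H/ACA genes lay a median of 270.0 bp from it, with 27 of 111 in that range.

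The strongest intronic gene was snoRNA:Me18S-C1968 (2R, 22197269 to 22197374, minus strand, 106 nt), a C/D gene that lay far from both splice sites (5115 and 5413 bp) of an intron of Swim. Its own TSSs had a coverage of 31824, out of 50542 for all intronic genes, and without it the sum was 18718. TSSs formed 2 groups, one at the annotated start, with 6146 (2502 reads) on the base before it, and one inside the RNA, with 7660 (3118 reads) 74 nt after the start, which was 32 nt from the 3′ end. The host's own start had a coverage of only 46.7.

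The next genes were much lower. snoRNA:Me18S-G1358c in RpL15 (3L, 27267383 to 27267450, plus strand) had an own coverage of 1343, with its strongest TSS (384, from 228 reads) 24 nt from the 3′ end. snoRNA:M in sta (X, 1482492 to 1482590, minus strand) had 707, and its strongest TSS (219, from 89 reads) lay 8 nt after its start. That base also lay inside snoRNA:Me28S-G980 (1482559 to 1482629, minus strand), which overlaps snoRNA:M in the same host and had 130. The TSS was counted for snoRNA:M alone, so the values of these overlapping genes cannot be told apart. In Uhg2, a noncoding host, snoRNA:Me18S-A1576 had 654, and both U14 copies, which belong to a snoRNA needed for 18S rRNA processing, had 542 (snoRNA:U14:30Eb) and 535 (snoRNA:U14:30Ea), each with its strongest TSS 26 nt from the 3′ end. snoRNA:Me28S-U2134a in RpL13A had 635, snoRNA:Psi28S-3385a in kra had 615, snoRNA:Me28S-C788b in Sf3b3 had 598 and snoRNA:Me18S-C1366 in Uhg5 had 495. In these the strongest TSS lay 25 nt, 25 nt, 38 nt and 38 nt from the 3′ end. The 10 highest genes, 8 of them C/D genes, held 75.1% of the own coverage of all intronic genes, and in 9 of the 10 the strongest TSS was 20 to 60 nt from the 3′ end.

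For 2 further genes the high coverage of the window was not their own. snoRNA:Psi28S-3385b in kra had 31 of its own in a window of 646, most of which belonged to snoRNA:Psi28S-3385a. snoRNA:U49:66Da in RpL14 had 3.37 of its own in a window of 804, and the highest values there (359 and 197) lay in an intron of RpL14, 161 and 160 bp before the snoRNA.

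Coverage at the annotated starts was weak outside the leading genes. Next to snoRNA:Me18S-C1968 (7979), the values above 20 included 284 in snoRNA:M, 36.2 in snoRNA:Psi28S-2566 (CG3902), 22.2 in snoRNA:Psi28S-3305c (Hrb98DE), 22.1 in snoRNA:Me18S-C1366 and 20.6 in snoRNA:Psi28S-291 (RpL3). The start of snoRNA:M lies inside the overlapping snoRNA:Me28S-G980, so its 284 may belong to either gene. A further 27 intronic genes with a TSS there stayed below 20.

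The scaRNAs were mostly low. Of the 16 genes, 14 were intronic and 12 had a TSS in the window, and the median own coverage of the intronic ones was 9.97. In 3 of the 14 it was above the upper quartile of all intronic genes, with 133 in scaRNA:MeU5-U42 (in CG12316, with its strongest TSS 23 nt from the 3′ end), 96.2 in scaRNA:MeU5-C46 (CG1142) and 93.5 in scaRNA:MeU2-C28 (Stt3A). scaRNA:MeU2-G25 had 29, scaRNA:PsiU5-44 had 12.8, scaRNA:MeU2-48 and scaRNA:MeU2-C41 had 10.1 each, and scaRNA:PsiU1-6, scaRNA:PsiU2-55, scaRNA:PsiU6-40 and scaRNA:MeU4-A65 had 4.91 to 9.83. Among the intronic scaRNAs, FBgn0263479, in Gp210, and scaRNA:MeU5-G38, in pit, had no TSS, and scaRNA:PsiU2-38.40.42 had none of its own.

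The other 12 of the 14 intronic genes with no TSS in the window were snoRNA:Psi28S-1180 (in tou), snoRNA:abba-a (tn), snoRNA:Me28S-A2486 (lncRNA:CR31647), snoRNA:Psi18S-525k (Msp300), snoRNA:Psi18S-640e (Arpc2), snoRNA:Me28S-C2645c (Uhg3), snoRNA:Pi4KIIalpha-a (Pi4KIIalpha), snoRNA:Me28S-A2629 (Rbfox1), snoRNA:CG32479-a (Usp10), snoRNA:Me18S-A1374 (Dys), snoRNA:Psi28S-1232 (RpL17) and snoRNA:Psi28S-1135e (RpS5a). snoRNA:Me28S-A2629 lay 30370 bp before the 3′ splice site of its intron in Rbfox1 and snoRNA:Me18S-A1374 lay 3860 bp before that in Dys.

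By their symbols, 124 of the genes, in 42 families, carried a copy letter, taken as a letter from a to k directly after a digit at the end. Copies named otherwise, such as the U14 and U3 genes, were counted as genes without a copy letter. Of these 124, 120 had a TSS in the window, against 125 of the 145 genes without a copy letter, but their median own coverage was 16.6, against 25.3 in genes without a letter. This split does not separate copies from single genes. It was made after the values were seen, and reads may be shared between copies. Close neighbours were frequent, since 150 of the 269 genes had another snoRNA gene within 200 bp on the strand.

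The intronic genes fell into 92 host genes, of which 81 were protein-coding, 53 held 1 snoRNA gene and 39 held more. Because 11 snoRNA genes lay in introns of a pair of overlapping hosts, their values enter both in the sums per host. The hosts had TSSs at their own starts almost without exception, in 89 of 92 cases (96.7%, 90.8 to 98.9), whereas 56.2% of all other genes had a TSS within 50 bp of a start of their own. Among protein-coding genes alone, the share was 98.8% (93.3 to 99.8) in hosts and 67.5% in the others. CG31191, lncRNA:CR31647 and lncRNA:CR42491 were the 3 hosts with none. Summed coverage at the starts had a median of 1586 in hosts and of 45.7 in other protein-coding genes, and 53 hosts exceeded the 90th percentile of those genes (925). All 28 hosts with a symbol starting with RpL or RpS did so, and these are called ribosomal protein hosts here. Their median was 13334, with a range of 3425 to 42858. The 64 genes with such a symbol that host no snoRNA had a median of 7611, and their range (0 to 118902) enclosed that of the hosts. A host that encodes a ribosomal protein under another symbol would fall among the other hosts. The 7 Uhg genes, noncoding hosts of snoRNAs, had a median of 723 and the 57 other hosts one of 561.

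**Figure D4:**
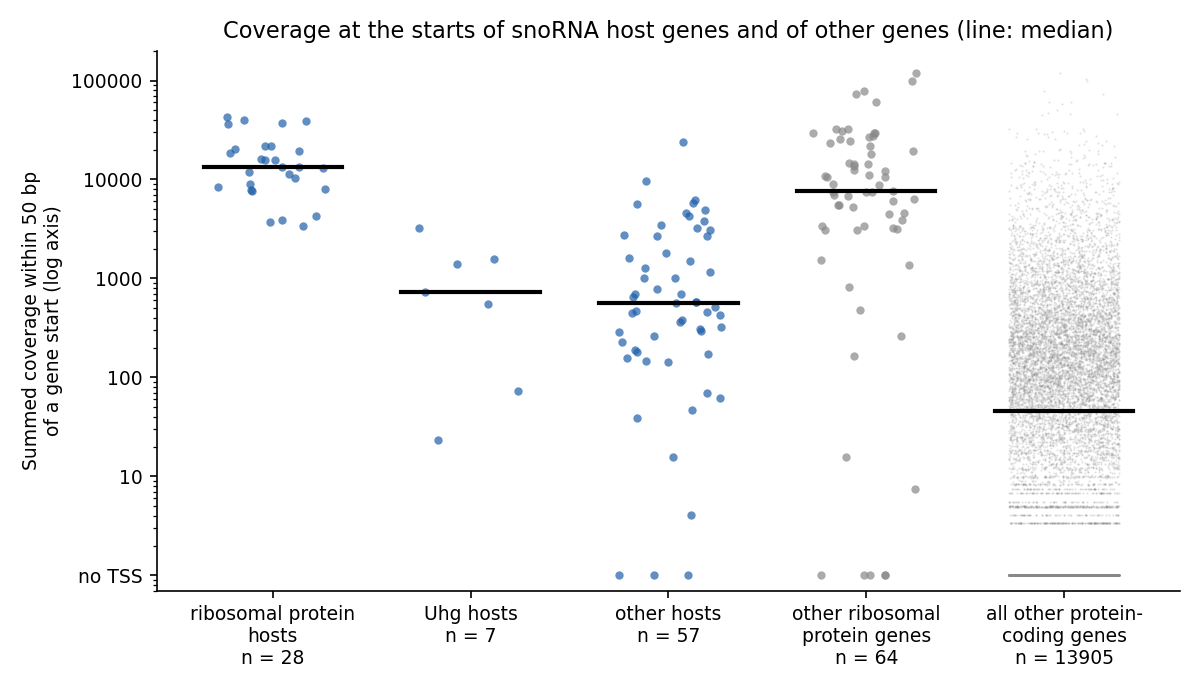
Summed coverage within 50 bp of a gene start (log axis, genes without a TSS at the bottom) for ribosomal protein hosts, Uhg hosts and other hosts of snoRNA genes (blue), and for other ribosomal protein genes and all other protein-coding genes (grey), with 1 point per gene and lines at the medians. Host medians were 13334, 723 and 561, against 45.7 in all other protein-coding genes.

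The host with the highest start coverage was RpS29 (42858), and those high after it included RpL13A (39204), RpS9 (37493), RpL10Ab (36630), the translation elongation factor gene eEF1alpha1 (24112), RpL3 (21889), RpL22 (21871), RpS3A (20520) and RpL28 (19590). They held few snoRNA genes, at most 5 each. The own coverage summed over a host ranged widely among them. It was 781 in RpL3, 650.3 in RpL13A and 281 in RpL22, but 36.8 in RpL28, 35.1 in RpS29, 32.9 in eEF1alpha1, 26.3 in RpS3A, 19.8 in RpS9 and 4.11 in RpL10Ab. Across the 92 hosts, own and start coverage had a Spearman rho of 0.11, given as a description, since the snoRNA genes of a host share its transcript.

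By the median of each list, own coverage relative to the start was highest in the Uhg genes. Own coverage was summed over all snoRNA genes of a host, so hosts with many of them tend to higher values. The own coverage of a host's snoRNA genes was a median of 65.8% of its start coverage in Uhg genes, 0.394% in ribosomal protein hosts and 5.04% in the other hosts. Single Uhg genes ranged from 5.91% (Uhg8) to 163% (Uhg7), and some of the other hosts were higher, such as CG3902 (499%). Uhg5 (own 1085, start 723), Uhg1 (own 1537, start 1395) and Uhg7 (own 38.1, start 23.3) were among the 8 hosts with a start TSS whose own coverage was the larger. The others were CG10576, CG12316, CG3902, lncRNA:CR45184, which shares its snoRNA genes with Sf3b3, and Swim. The 3 snoRNA genes of Uhg7 likewise lie in introns of RpL23A as well, whose start coverage was 16003, so their own coverage exceeded the start coverage of only one of their hosts. Per snoRNA gene the lists were closer together, and the median own coverage was 39.6 for genes in Uhg hosts, 19.4 for those in ribosomal protein hosts and 18.2 in the rest. Unlike in the percentages above, each gene was counted here under a single host, which for the genes of Uhg7 was RpL23A.

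Host starts seldom fell into a snoRNA window. In 13 of the 243 intronic windows a TSS at a host start was present, with a median coverage of 1395, and in all 13 the snoRNA lay 31 to 99 bp from the 5′ splice site. The largest was 36630 in the window of snoRNA:Psi18S-920 in RpL10Ab, where the snoRNA's own coverage was 4.11. Then came 15572 in that of snoRNA:Me18S-G1358c in RpL15, where the own coverage was 1343. With these 13 windows set aside, 216 of the remaining 230 intronic genes had a TSS.

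Genes in the same host did not have the same coverage. Arpc2, a subunit gene of the actin-nucleating Arp2/3 complex, carried the most snoRNA genes, 17, all of the H/ACA families Psi18S-525 and Psi18S-640. The median own coverage was 4.11, 5 of the genes were at 0, and the highest, snoRNA:Psi18S-525d, had 17.7. Uhg1 carried 16 genes, of which snoRNA:Me28S-G3277a was at 0 and snoRNA:Me28S-A1666a reached 378, around a median of 72.9. In all 15 Uhg1 genes with an own TSS, the strongest lay 20 to 60 nt from the 3′ end. dom, which encodes a chromatin-remodelling ATPase, carried 15 genes, the lowest snoRNA:Psi18S-841d at 0 and the highest snoRNA:Psi28S-3316c at 206, around a median of 50.3. Among genes with an own TSS, the strongest lay 20 to 60 nt from the 3′ end in only 8 of 14 in dom and 5 of 12 in Arpc2.

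RpS5a (14 genes) reached 60.7 and had a median of 14.8, with 5 genes at 0, and Uhg5 (11 genes) spanned 4.11 to 495 around a median of 31. In Sf3b3, a splicing factor gene, the 9 genes spanned 0 to 598 (median 75.4), and in kra the 8 genes spanned 3.37 to 615 (median 59.6). Among the hosts of 7 genes, the highest own coverage was 362 in RpS7, 85.8 in Hrb98DE, 325 in Uhg4 and 196 in Nop60B, beside medians of 9.83, 28.9, 26.8 and 87.5. In kra and RpS7 a single gene held 62.6% and 61.0% of the host's own coverage, while in Arpc2 and dom the highest held 19.5% and 23.5%.

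**Figure D5:**
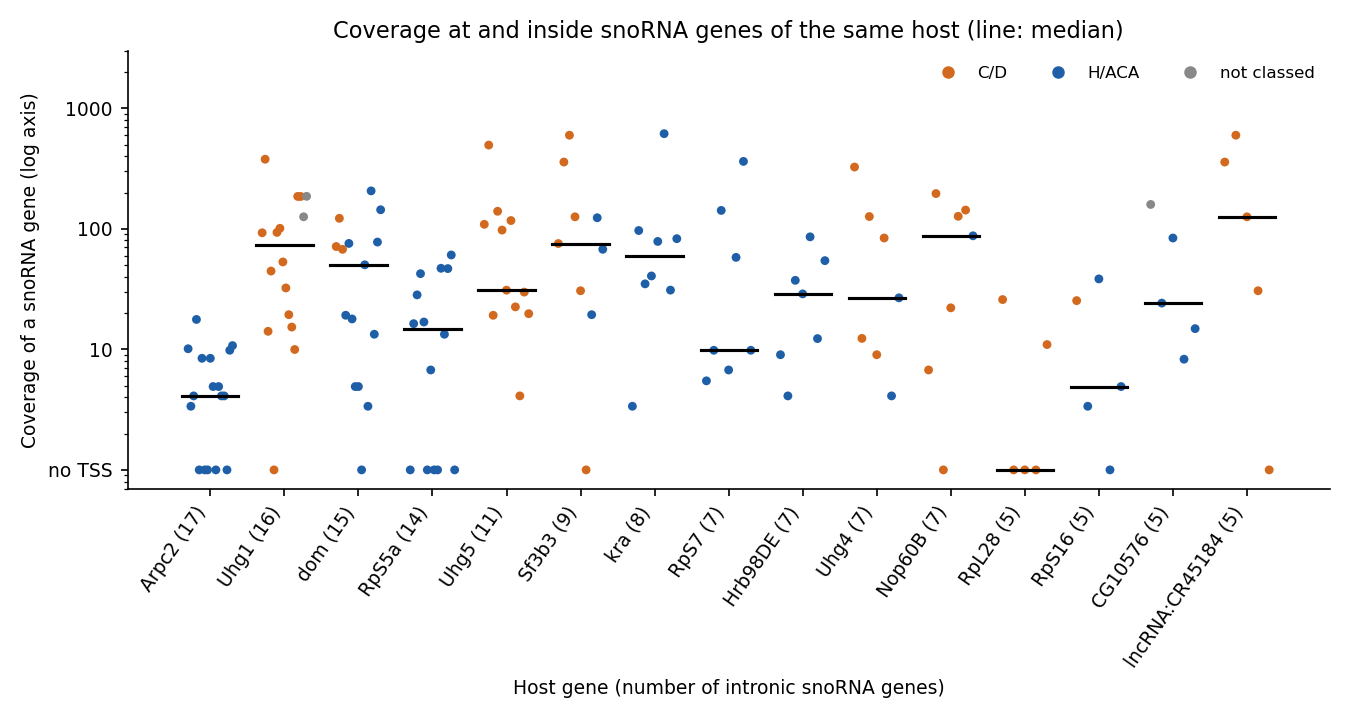
Own coverage of each snoRNA gene (log axis, genes without an own TSS at the bottom) in the 15 hosts with at least 5 intronic snoRNA genes, with the number of genes in brackets, C/D genes in orange, H/ACA genes in blue, unclassed genes in grey, and lines at the medians. Genes of 1 host differed widely, from 3.37 to 615 in kra and from 0 to 378 in Uhg1, and 5 of the 17 genes in Arpc2 had no own TSS.

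The genes for the proteins of the snoRNA particles all had TSSs at their starts. Among the C/D proteins, Fib, the methyltransferase, had a coverage of 472, Nop56 had 933, nop5 had 692 and hoip had 896. Among the H/ACA proteins, Nop60B, the pseudouridine synthase, had 1004, NHP2 had 859, CG4038 (Gar1) had 1453 and CG7637 (Nop10) had 428. These 8 values ranged from 428 to 1453, above the median of 45.7 in other protein-coding genes. Of the 8 genes, 3 were snoRNA hosts themselves. Nop60B held 7 snoRNA genes, and Fib and nop5 held 1 each.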

How the data were processed

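csRNA-seq libraries (3) and an input library (1) were made from embryos. The authors trimmed adapters, aligned reads to dm6 with STAR and called TSSs with HOMER from the first bases of the reads. The submitters' processing notes list bcl2fastq 2.17, HOMER 4.11, STAR 2.7.9a and bedtools 2.30.0. The deposited coverage is a signal per TSS, held as 1 value, with a minimum of 3. Every one of the 232302 values was a whole number of reads of 1 of 3 libraries scaled to 10000000 (tolerance 1e-06). How that library was chosen, how the input entered the list and how reads matching several places were counted are not given in the sources used here. The log2 scores and the windows were not used here.

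Genes came from Ensembl release 115 (BDGP6.54, the coordinates of dm6). Hosts are genes with an intron that holds the snoRNA on the same strand. A TSS was at a host start within 50 bp, at a snoRNA start or end within 5 bp, and a snoRNA's own if at its start, in its body or at its end. Shares have 95% Wilson intervals. PCR duplicates could not be told apart.

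The members, lists and rules were chosen with earlier results of these data known. The genes named were the 10 highest independent and 10 highest intronic genes by window coverage (known starts left out for intronic genes), all U3, U8, U13, U14 and scaRNA genes, the 10 hosts with most snoRNA genes, the 10 hosts with the highest start coverage and the genes of 8 snoRNA-binding proteins. 1 of these hosts is not reported here. Others were named after their values were seen. No gene was named U8 or U13. The recovery of reads and the assignment of places were tested on simulated data. The software was matplotlib 3.10.9, SciPy 1.17.1, pandas 2.3.3 and NumPy 2.4.6 under Python 3.11.15. No sequence is shown, because no genome sequence was used here.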

Additional observations from a re-analysis of the deposited data

How the results depend on the processing

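Of 34 values under alternatives, 23 moved beyond the interval of the reported value (or by 1 percentage point or more for the share of coverage) and 11 did not. With the authors' deduplicated list, which holds 1 TSS per group of overlapping windows, the share of snoRNA genes with a TSS was 39.0%, that of intronic genes 37.9%, the share with a TSS within 5 bp of the start 2.60%, the share of window coverage at host starts 10.2% (11.7% in the full list), the ratio of density in snoRNA bodies to the rest of the introns 18.9 and the sense share 86.7%. With at least 4 reads behind a TSS the values were 72.9%, 74.5%, 6.32%, a ratio of 268 and a sense share of 99.5%. With a window of 100 bp, 86.2% of all genes and 89.3% of intronic genes had a TSS, and 1.45% of the coverage lay at host starts. Without snoRNA genes near another one, 84.0% of all genes and 88.9% of intronic genes had a TSS, and the ratio was 188. Within 10 bp of the start in place of 5 bp, 25.7% had a TSS. The share of coverage at host starts was 27.3% without the strongest TSS. The ratio was 65.1 in introns with a TSS elsewhere. Among alternatives chosen after seeing the data, that share was 53.0% without snoRNA:185 and 5.95% without the window of snoRNA:Psi18S-920, that of intronic windows alone was 77.0% without snoRNA:Me18S-C1968, and the ratio was 65.2 with the flanks of snoRNA genes counted. The cause of these changes was not tested, beyond that some alternatives hold fewer TSSs or genes. The share of independent genes with a TSS (50% to 59.1%) and of hosts with a TSS at their start (92.4% to 97.8%) stayed within their intervals. That of intronic genes did not, and in the deduplicated list it was below the independent share. Replicates could not be left out in turn, and the share of host starts with a TCT motif was not run because the genome sequence was not used here. No paired analysis was possible because each TSS has 1 value. Values of 2 or 3 reads limit the weaker genes.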
